A study of Mus musculus with 20 samples.

Results

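Gastruloids, embryo-like aggregates of stem cells, grown in Matrigel with added CHIR99021 (TLSMGC) were compared with gastruloids grown in Matrigel alone (TLSMG). Matrigel is a basement membrane extract used as a supporting gel. The comparison used the 3 TLSMGC and the 3 TLSMG libraries, chosen by their labels alone, which are 6 of the 20 samples of the series and 6 of its 15 bulk RNA libraries. All structures came from mouse embryonic stem cells of the F1G4 strain that carry 2 reporters, T::H2B-mCherry and Sox2::H2B-Venus. Cells were freed of feeder cells, left to aggregate for 48 h and then pulsed with 3 µM CHIR99021, so TLSMG cells had also seen the compound once, and the 2 groups differ in the later exposure in Matrigel. The labels used here give neither the dose nor the timing of that later exposure. Each library holds polyA RNA of 6 structures collected at 120 h, picked because they had an asymmetric pole and pooled, and the labels call the 3 libraries of a group biological replicates. The other bulk groups are 96h (precursors collected at 96 h, 10 pooled per library), Gastruloid (120 h, by another protocol whose labels name no Matrigel) and TLSMGCL (120 h, Matrigel with CHIR99021 and LDN), and their levels are given below only beside those of the 2 groups compared.

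CHIR99021 inhibits GSK3, the kinase that marks β-catenin for destruction, and so turns on canonical WNT signalling without a WNT ligand. In the embryo's trunk, WNT and FGF signals are high in the tailbud, where progenitors of neural and mesodermal fate lie, and in the presomitic mesoderm in front of it. As cells leave this zone, they form somites or neural tube, and retinoic acid made by the somites opposes the posterior signals. Somites later split into sclerotome, the source of cartilage and bone of the spine, and dermomyotome, the source of muscle and dermis.

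Levels are given as TPM, StringTie's transcript abundance corrected for gene length and scaled to the same total in every library, 1000000. Differences are TLSMGC minus TLSMG on the log2(TPM + 1) scale, which understates the change of genes with low levels, and are tested with limma across 14290 genes at a Benjamini-Hochberg adjusted p under 0.05, two-sided. "Rose" and "fell" are used of genes that passed this test, and every change given without a unit is a difference on this log2 scale. An error after ± is an SE from the fit unless an SD is named. Depth is known only in relative terms: the ratio of deposited coverage to FPKM lay between 3.12 and 4.74 for TLSMGC and between 3.78 and 6.84 for TLSMG. Between 13810 and 13938 genes reached 1 TPM in the TLSMGC libraries and between 14437 and 14494 in the TLSMG libraries.

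With CHIR99021 in the Matrigel, 5842 of the 14290 genes changed (40.9%), of which 1490 rose (10.4%) and 4352 fell (30.5%). A change of at least 2-fold on this scale was found for 880 genes (6.16%), with 185 higher (1.29%) and 695 lower (4.86%). The split of the first count depends on the scaling, since the median difference over all genes tested was -0.157. After median-of-ratios scaling, which brings that median to 0, 2741 genes rose and 2572 fell. For this reason the counts of each gene group below are given beside the same counts after that scaling where the number of genes that rose or fell differs. Each count before that scaling is to be read beside the shares over all genes tested, 10.4% that rose and 30.5% that fell. Counts after that scaling are to be read beside the 2741 that then rose and the 2572 that fell, of the same 14290 genes. Large changes were few in both directions. A difference of at least 3 on the log2 scale was reached by 12 genes upwards and 24 downwards, and one of at least 4 by 7 and 3. In total 7482 genes (52.4%) had no overlap between the libraries of the 2 groups, so lack of overlap alone sets no gene apart.

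The 12 largest rises were those of Wnt6, Cdx1, Apod, Sp5, Notum, Slc25a48, Msgn1, Zic1, Wnt11, Tbx6, Nfam1 and Sparcl1. They include WNT ligands (Wnt6, Wnt11), a feedback inhibitor of WNT (Notum), a transcription factor induced by WNT (Sp5) and regulators of the presomitic mesoderm (Msgn1, Tbx6). The 12 largest falls included those of Foxd2, its neighbouring long noncoding RNA Foxd2os, Cd36, Hes3, Pax1, Ebf2, Pcp4, Peg3, Cer1, Hopx and Igfbp5. Of the 24 genes with the largest changes, 8 overlap an annotated gene on the opposite strand (Wnt6, Notum, Wnt11, Zic1, Sparcl1, Pax1, Ebf2 and Hopx) and 1, Pcp4, overlaps one on the same strand. The library kit keeps the strand, but the strand setting of the counting is not given in the sources used here, so reads of such partners may be mixed.

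Among 40 lists of genes of known role, whose 430 genes were looked up whatever their values, 342 genes passed the filter on low values. Of these, 80 rose and 167 fell, 42 and 79 of them at least 2-fold. The plot of all lists shows where they lie relative to the median of all genes.

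**Figure D1:**
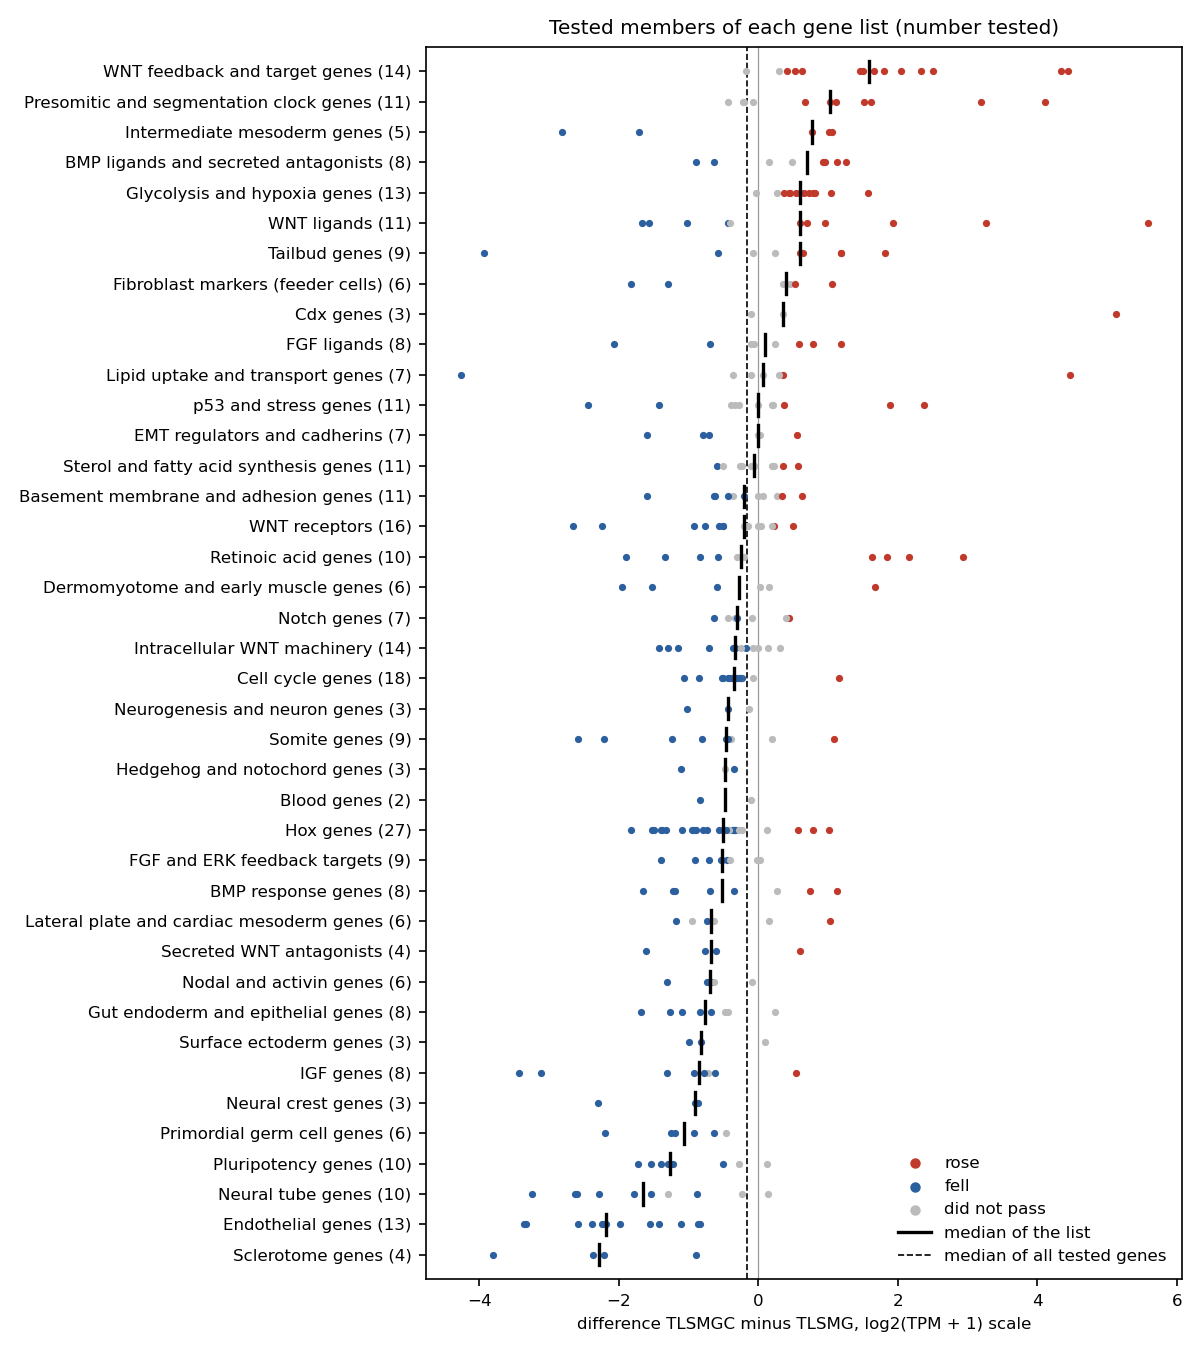
Difference between TLSMGC and TLSMG on the log2(TPM + 1) scale (x axis) for each tested member of the 40 gene lists (y axis, ordered by the list's median, with the number of members tested). Red points rose, blue points fell and grey points did not pass; the WNT target list has the highest median (1.58), and the sclerotome, endothelial and neural tube lists the lowest (-2.29, -2.18 and -1.66), against a median of -0.157 over all genes (dashed line).

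Feedback and target genes of WNT were higher with CHIR99021. Of 14 tested, 12 rose and none fell, 9 of them at least 2-fold, and the median difference was 1.58 (1.75 after median-of-ratios scaling). Sp5 (ENSMUSG00000075304.2, chromosome 2, 70474923 to 70477729) measured 193, 157 and 182 TPM in TLSMGC replicates 1, 2 and 3 and 7.54, 6.24 and 7.84 TPM in those of TLSMG. These means of 177 ± 18.3 and 7.2 ± 0.849 TPM (SD, n = 3) differ 24.6-fold, with a log2 difference of 4.44 ± 0.17 (SE, limma adjusted p = 8.75e-10). Notum (ENSMUSG00000042988.10, chromosome 11, 120653788 to 120661175), an enzyme that removes the lipid from WNT proteins and so inactivates them, measured 61.9, 73.6 and 65.6 TPM against 2.61, 1.79 and 2.76 TPM. That difference was 4.34 ± 0.18. No TLSMGC library of either gene came near the TLSMG range. Axin2 (ENSMUSG00000000142.15, chromosome 11, 108920349 to 108950783), a scaffold of the complex that destroys β-catenin and a common readout of the pathway, measured 106, 93.4 and 104 TPM against 18.3, 31 and 23.3 TPM. Its difference was 2.05 ± 0.17, with a limma adjusted p of 7.78e-07.

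Other inhibitors of the pathway rose too. Nkd1, which binds the signal carrier Dishevelled, rose by 2.5 and its relative Nkd2 by 1.66. Tnfrsf19 rose by 2.33 and Apcdd1, a membrane inhibitor, by 1.80. Among transcription factors that bind β-catenin, Tcf7 rose from 56.8, 55.7 and 60 TPM to 171, 163 and 159 TPM (1.5 ± 0.08), and Lef1 from 64.9, 64.7 and 75.5 TPM to 113, 105 and 98.9 TPM (0.62 ± 0.12). Their relatives went the other way. Tcf7l1, a repressor of WNT targets in stem cells, fell from 70.6, 74.8 and 75.4 TPM to 29.5, 26.1 and 24.9 TPM (-1.43 ± 0.12), and Tcf7l2 fell by 1.29 on the log2 scale. The ubiquitin ligase genes Znrf3 and Rnf43, which remove WNT receptors, differed less, by 0.52 and 0.41. The Rnf43 call, at 0.939 to 2.01 TPM, was lost without TLSMG replicate 1 (0.37, limma adjusted p = 0.101), TLSMG replicate 3 (0.33, adjusted p = 0.135), TLSMGC replicate 1 (0.38, adjusted p = 0.0971) or TLSMGC replicate 2 (0.37, adjusted p = 0.101), and with the replicate number as a block (adjusted p = 0.0505), a fit of the 2 groups alone (adjusted p = 0.0667), no filter (adjusted p = 0.0614) or a pseudocount of 0.1 (adjusted p = 0.0629). Lgr5, an R-spondin receptor, and Sp8 did not pass, with differences of 0.30 and -0.18. The secreted inhibitor Dkk1 rose by 1.46 at low levels, from 0.8, 0.682 and 0.585 TPM to 3.32, 5.79 and 2.41 TPM.

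**Figure D2:**
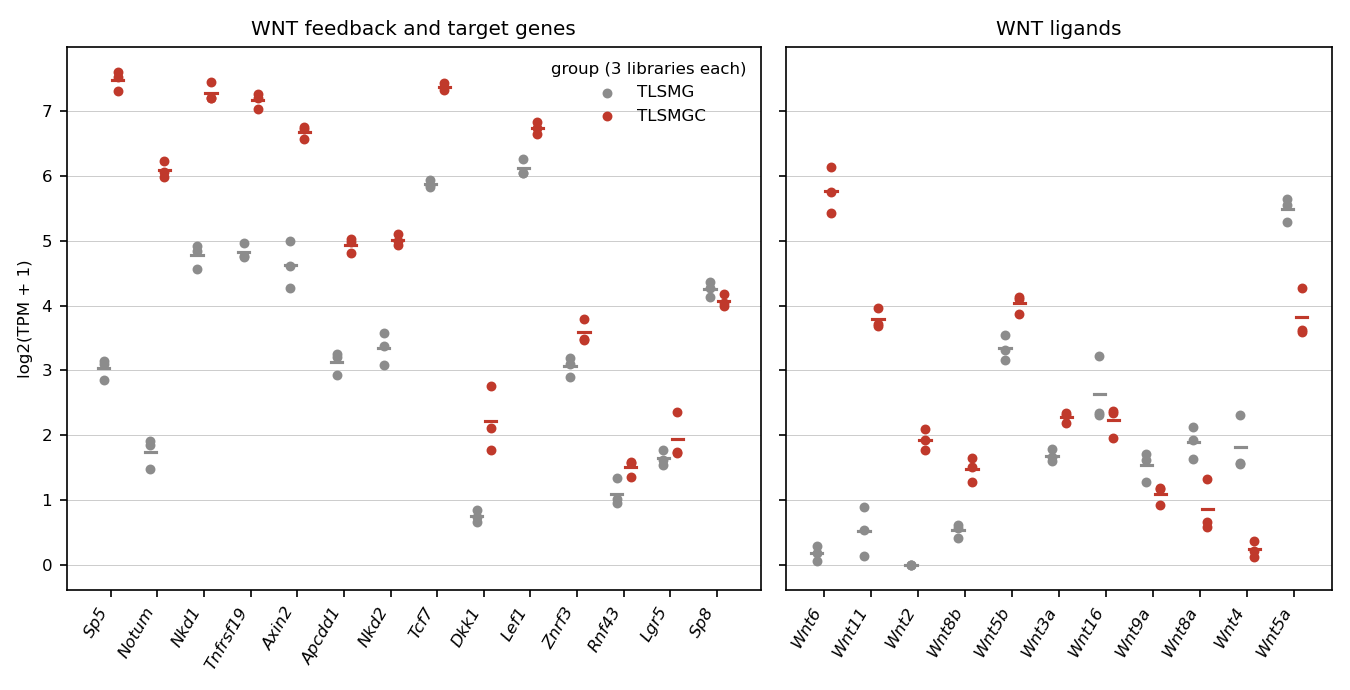
Level of the tested WNT target genes (left) and WNT ligand genes (right), as log2(TPM + 1), in the 3 TLSMG libraries (grey) and the 3 TLSMGC libraries (red), with genes ordered by their difference and bars at the mean. The groups stand apart most for Sp5 and Notum among targets and for Wnt6 and Wnt11 among ligands, while Wnt5a lies on the right with lower TLSMGC levels.

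The factors TCF and LEF bind a short core, CTTTGAT, and its presence near the start of the risen genes was looked up in RefSeq promoters of build GRCm38.p6. The search covered the 250 bases before each start on both strands, and no other motif was searched. Among 32851 starts in that table, 3.21% hold the core or its reverse complement ATCAAAG. Of the tested genes that matched by symbol, it was found for 262 of 9607 (2.73%), for 9 of 122 genes that rose at least 2-fold (7.38%) and for 11 of 492 that fell at least 2-fold (2.24%). These shares are a description of letters and show no binding. In the WNT target list, 2 of 10 matched genes hold it, Sp5 and Tnfrsf19. Among the largest rises it was also found for Msgn1 and Wnt11. That list may be incomplete, since not every gene was looked up. Whether the other largest rises lack the core is therefore not stated. The 3 windows below are shown because their genes lie among the 12 largest rises. Each is read 5′ to 3′ on the gene's strand and the capitals mark the core. The Sp5 window is chr2:70474779-70474865 on the + strand with the core beginning 104 bases before the start, that of Msgn1 is chr12:11209105-11209191 on the - strand with 203 bases, and that of Wnt11 is chr7:98835021-98835107 on the + strand with 51 bases.
Sp5: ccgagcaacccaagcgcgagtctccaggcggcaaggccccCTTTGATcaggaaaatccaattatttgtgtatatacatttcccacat
Msgn1: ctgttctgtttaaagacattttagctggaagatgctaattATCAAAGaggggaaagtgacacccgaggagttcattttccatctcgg
Wnt11: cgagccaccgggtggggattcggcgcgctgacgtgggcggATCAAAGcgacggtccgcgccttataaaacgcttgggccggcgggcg

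WNT ligand genes did not move together. Of 11 tested, 6 rose and 4 fell (6 and 3 after median-of-ratios scaling). Wnt6 (ENSMUSG00000033227.7, chromosome 1, 74771892 to 74785322), a ligand of surface ectoderm and somite epithelium, had the largest rise of all genes named here. It measured 68.9, 41.8 and 53 TPM in TLSMGC against 0.139, 0.0417 and 0.232 TPM in TLSMG, a difference of 5.58 ± 0.21 (limma adjusted p = 6.06e-10). Its mean in 96h was 3.1 TPM, in Gastruloid 0.0624 TPM and in TLSMGCL 73.4 TPM. Wnt11 rose from 0.104, 0.456 and 0.856 TPM to 14.6, 11.9 and 12.2 TPM (3.26 ± 0.19). Wnt2 was listed at 0 in all 3 TLSMG libraries and at 3.27, 2.82 and 2.41 TPM in TLSMGC. Wnt3a, the main ligand of the tailbud, rose from 2.04, 2.47 and 2.18 TPM to 3.95, 3.57 and 4.06 TPM (0.59 ± 0.16), a call that a pseudocount of 5 ended (0.29, limma adjusted p = 0.0556). Wnt5a, a ligand of noncanonical signalling, fell from 48.7, 45.9 and 38 TPM to 18.3, 11 and 11.3 TPM (-1.67 ± 0.22), and Wnt4 fell by 1.57 on the log2 scale. Thus the ligand with the highest level of the list in TLSMG was lower with CHIR99021, and Wnt6 took the highest level in TLSMGC.

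Of 16 WNT receptor genes tested, 2 rose and 7 fell, beside 10.4% and 30.5% of all genes tested. After median-of-ratios scaling 3 rose and 6 fell. Fzd8 fell from 22.7, 24.7 and 26.5 TPM to 2.63, 3.39 and 3.15 TPM (-2.66 ± 0.15), and Fzd4 from 18.5, 18.8 and 18.8 TPM to 3.35, 3.8 and 2.5 TPM (-2.24 ± 0.18). Fzd10 rose from 61.4, 82.1 and 74.4 TPM to 99.2, 96 and 110.2 TPM (0.49 ± 0.09). The co-receptor Lrp6 fell by 0.57 on the log2 scale. Rspo3, which amplifies WNT signals at the receptor, measured 26.9, 17.6 and 20.1 TPM against 16.6, 18.3 and 20.7 TPM in TLSMGC and did not pass, with overlapping libraries. Among secreted antagonists, Sfrp1, Sfrp2 and Sfrp5 fell and Frzb rose, by -0.76, -0.61, -1.61 and 0.59.

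Of 14 genes of the intracellular WNT machinery 8 fell and none rose, but 3 fell and 2 rose after median-of-ratios scaling, so the direction of the smaller changes rests on the scaling. The gene of β-catenin itself, Ctnnb1, measured 890.2, 971 and 697 TPM in TLSMG against 577, 656 and 779 TPM in TLSMGC, with overlap, and did not pass (-0.34 ± 0.14, limma adjusted p = 0.0737). It passed without TLSMG replicate 3 (-0.48, adjusted p = 0.0211) or TLSMGC replicate 3 (-0.46, adjusted p = 0.0355). Gsk3b, one of the genes of the inhibited kinase, fell from 54.2, 51.1 and 54.9 TPM to 41.7, 18.9 and 16.4 TPM (-1.15 ± 0.33, adjusted p = 0.0141). That call was lost without TLSMGC replicate 2 (-1.0, adjusted p = 0.054) or replicate 3 (-0.9, adjusted p = 0.069), and TLSMGC replicate 1 lies closest to TLSMG. Gsk3a did not pass (-0.01).

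Genes of the tailbud and the presomitic mesoderm were higher with CHIR99021 where they changed, with 2 exceptions. Of the presomitic and segmentation clock list, 7 of 11 rose and none fell, 6 at least 2-fold. Tbx6 (ENSMUSG00000030699.16, chromosome 7, 126781483 to 126785560), which commits cells to paraxial mesoderm, measured 60.6, 56.2 and 68 TPM in TLSMGC against 6.16, 3.95 and 7.94 TPM, a 10.2-fold difference of means (3.19 ± 0.26). Msgn1, its partner in that commitment, rose from 0.892, 0.823 and 1.85 TPM to 35.9, 28.8 and 45 TPM (4.11 ± 0.22). These levels lay between those of TLSMG and of 96h, where Tbx6 averaged 323 TPM and Msgn1 136 TPM. Hes7, the oscillator of the segmentation clock, rose by 1.61, and the Notch ligands Dll1 and Dll3 by 1.02 and 1.11. Mesp1 rose by 1.52, from 1.24, 0.822 and 1.65 TPM to 4.76, 5.43 and 5.82 TPM. In TLSMG all 11 genes of the list were highest in replicate 3, and in TLSMGC 9 were. Replicate 3 was the deepest TLSMG library (coverage to FPKM 6.84), while replicate 2 was the deepest of TLSMGC (4.74). Mesp2, a gene of the border where somites are cut off, did not pass. It measured 5.76, 6.5 and 7.65 TPM against 7.05, 5.11 and 9.36 TPM in TLSMG. Nor did the clock modulator Lfng pass (-0.22).

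In the tailbud list, 5 of 9 rose and 2 fell (5 and 1 after median-of-ratios scaling). T (Brachyury), the factor of the primitive streak and tailbud, measured 42.4, 42.1 and 48.3 TPM against 20.3, 16.7 and 19.4 TPM (1.19 ± 0.19, limma adjusted p = 3.21e-04). Evx1 rose by 1.81. Fgf17 rose by 1.18, a call lost without TLSMG replicate 2 (0.96, adjusted p = 0.0503). Nkx1-2, a marker of neuromesodermal progenitors, did not pass, at 42.5, 41.5 and 63.4 TPM against 50.4, 44.5 and 58.1 TPM, nor did Fgf8, the main FGF of the tailbud (0.24 ± 0.16). Cyp26a1, which degrades retinoic acid in the tailbud, fell by 0.58 on the log2 scale. That call was lost after median-of-ratios scaling (-0.44, adjusted p = 0.121) and without TLSMG replicate 1 (-0.45, adjusted p = 0.14), TLSMG replicate 3 (-0.51, adjusted p = 0.12), TLSMGC replicate 1 (-0.46, adjusted p = 0.135) or TLSMGC replicate 2 (-0.6, adjusted p = 0.0697). FPKM (-0.4, adjusted p = 0.0916), the GC and length correction (-0.44, adjusted p = 0.118), a fit of the 2 groups alone (adjusted p = 0.0585), no filter (adjusted p = 0.0863) and a pseudocount of 5 (adjusted p = 0.0541) ended it too. Hes3, a repressor of the Hes family that keeps neural progenitors from differentiating, fell from 24.3, 27.6 and 38.6 TPM to 0.789, 0.682 and 1.66 TPM (-3.93 ± 0.30). It was the largest fall of the list and stands against the rises of T and Evx1.

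The Cdx genes, which pattern the posterior trunk, differed among themselves. Cdx1 (ENSMUSG00000024619.8, chromosome 18, 61018862 to 61036199) measured 181, 114 and 159.6 TPM in TLSMGC against 2.77, 3.32 and 3.88 TPM in TLSMG, a 45.6-fold difference of means (5.12 ± 0.19, limma adjusted p = 6.18e-10). Cdx2 measured 83.7, 89.5 and 107 TPM against 77.6, 62.8 and 79.2 TPM and did not pass (0.35 ± 0.21, adjusted p = 0.191), but passed with the GC and length correction (0.59, adjusted p = 0.0456). Cdx4 did not pass either, with 12.4, 16.4 and 21.8 TPM against 15.5, 17.2 and 21.3 TPM. In TLSMG Cdx1 was the lowest of the 3 Cdx genes, and in TLSMGC it was the highest.

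**Figure D3:**
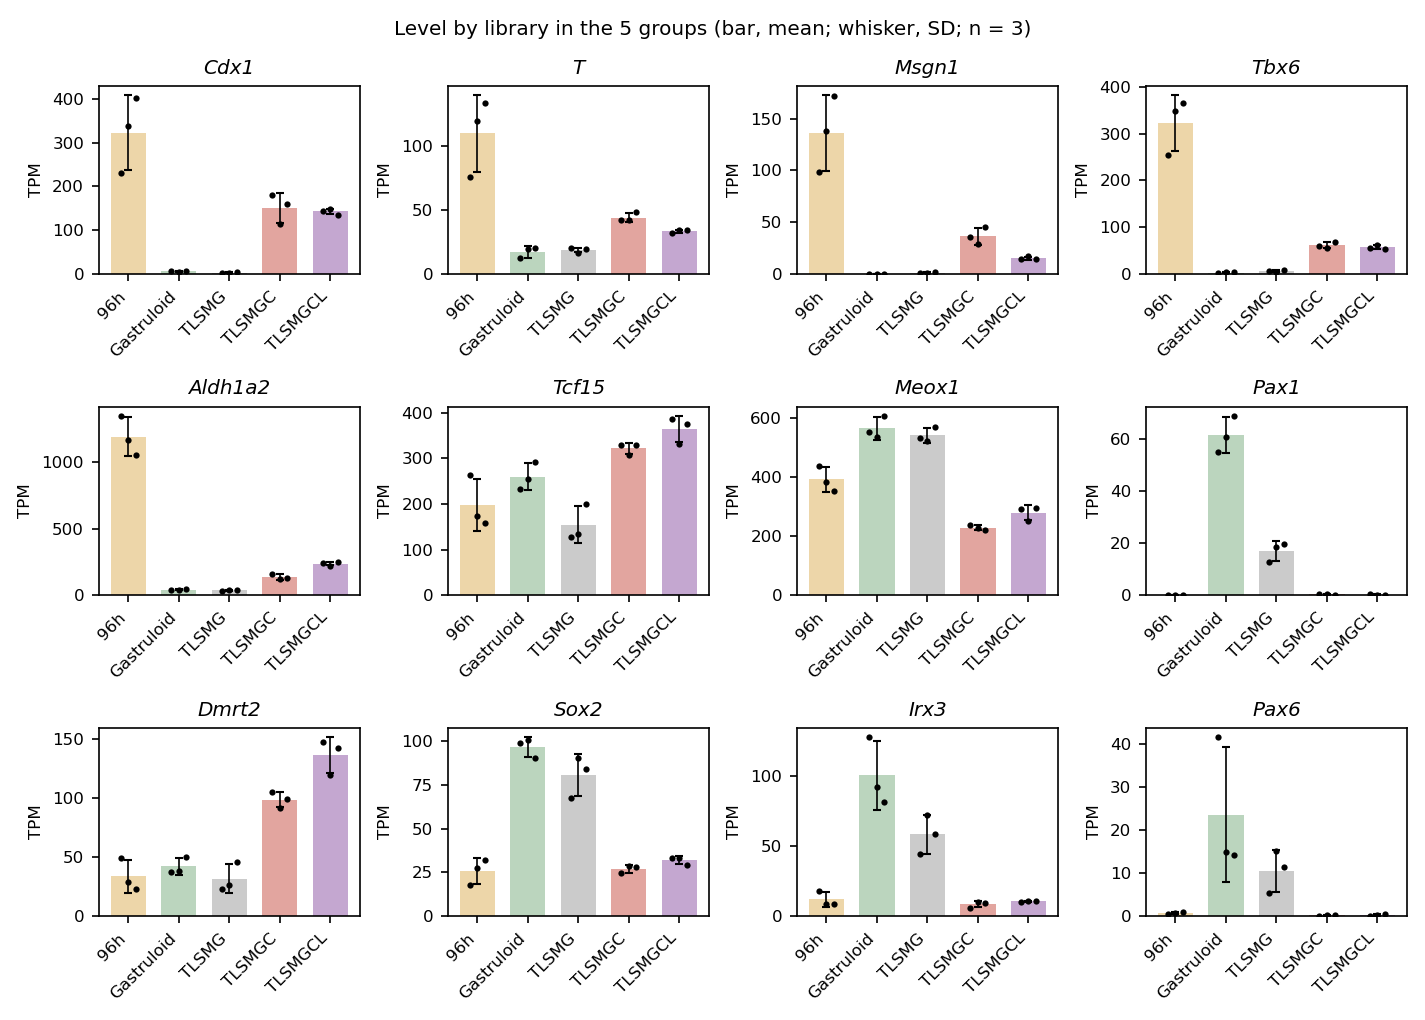
TPM by library (points) for 12 genes of the trunk in the 5 bulk groups, with bars for the mean and whiskers for the SD (n = 3), each panel with its own linear axis from 0. Cdx1, Msgn1 and Tbx6 are high in 96h and near 0 in TLSMG with TLSMGC between them, Tcf15 and Dmrt2 are higher in TLSMGC than in TLSMG, and Meox1, Pax1, Sox2, Irx3 and Pax6 are lower.

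Hox genes, which give trunk cells their position along the body axis, were mostly lower in TLSMGC. Of 39 Hox genes, 27 were tested, and 3 rose while 20 fell (3 and 14 after median-of-ratios scaling). By paralog number, the median difference was -0.30 for 8 genes of numbers 1 to 3, -0.90 for 15 genes of numbers 4 to 8 and -1.12 for 4 genes of number 9 or above. The genes that rose were Hoxb1 (from 34.7, 36.9 and 41.8 TPM to 59.6, 47.9 and 62.6 TPM), Hoxd1 (from 11.3, 10.6 and 9.53 TPM to 20, 18.1 and 18 TPM) and Hoxd9 (from 10.1, 8.23 and 7.8 TPM to 17, 16.9 and 21.5 TPM). Hoxb1 and Hoxd1 are among the earliest Hox genes to be switched on. Hoxb9, the most abundant Hox gene here, fell from 248, 341 and 286 TPM to 93.9, 101 and 110.3 TPM (-1.5 ± 0.19), and Hoxb8 had the largest fall of the list (-1.83 ± 0.18). Hoxd9 went against its paralogs Hoxb9 and Hoxc9, the latter at -1.52 ± 0.20. Hoxd9 averaged 3.86 TPM in 96h, 1.42 TPM in Gastruloid and 5.85 TPM in TLSMGCL, all below its TLSMG libraries.

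**Figure D4:**
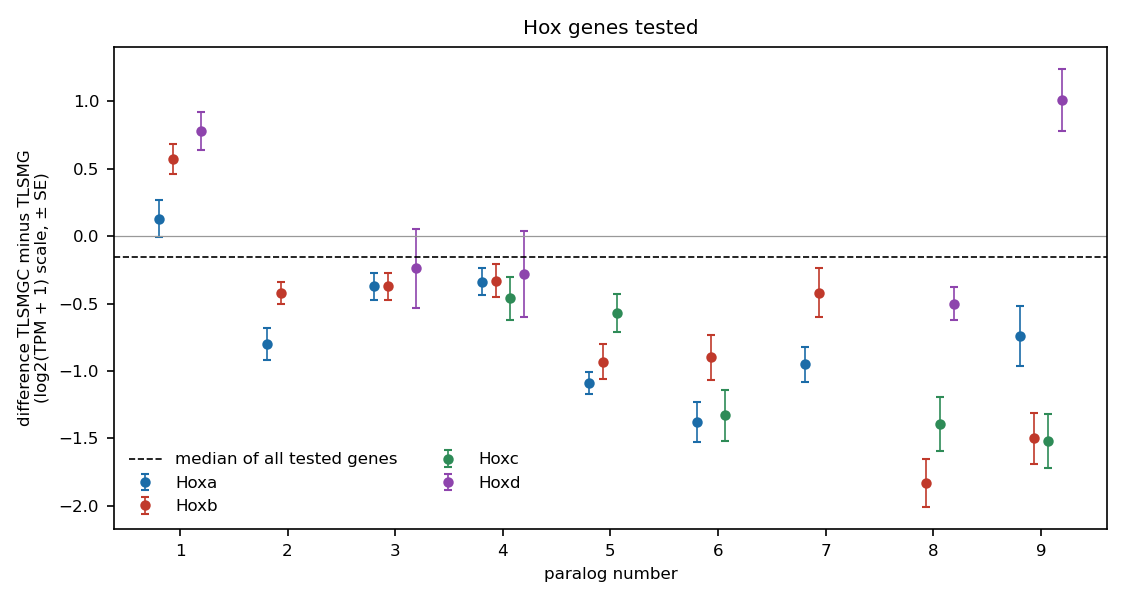
Difference between TLSMGC and TLSMG on the log2(TPM + 1) scale (y axis, ± SE from limma) for the 27 tested Hox genes by paralog number (x axis) and cluster (colour). Hoxb1, Hoxd1 and Hoxd9 lie above 0, while the genes of numbers 5 to 9 otherwise lie below it, down to -1.83 for Hoxb8.

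Somite genes split. Tcf15 (Paraxis), which makes somites epithelial, measured 329.9, 307 and 329 TPM in TLSMGC against 127, 135 and 201 TPM (1.08 ± 0.18, limma adjusted p = 4.02e-04). Of the 9 somite genes, it was the only one that rose, and 6 fell (2 and 5 after median-of-ratios scaling). Meox1, expressed throughout somites, fell from 533, 524 and 572 TPM to 239, 228 and 220.2 TPM (-1.24 ± 0.08), and Meox2 by 2.22 on the log2 scale. Of the genes that tell the front and back of a somite apart, Tbx18 of the front fell from 7.25, 7.67 and 9.16 TPM to 0.423, 0.648 and 0.407 TPM (-2.59 ± 0.19). Uncx of the back measured 18, 16 and 18 TPM against 18.5, 21.2 and 31.2 TPM and did not pass (-0.39 ± 0.26). The difference between those 2 differences was not tested. In TLSMG all 9 somite genes were highest in replicate 3, and in TLSMGC 6 were highest in replicate 1 and 3 in replicate 2.

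All 4 tested sclerotome genes fell, 3 of them at least 2-fold, with a median of -2.29. Pax1 (ENSMUSG00000037034.16, chromosome 2, 147361925 to 147393295), an early sclerotome factor, measured 0.244, 0.349 and 0.205 TPM in TLSMGC against 12.6, 18.7 and 19.6 TPM (-3.81 ± 0.14, limma adjusted p = 6.18e-10). Its Gastruloid mean was 61.7 TPM, and it was also low in 96h (0.0362 TPM) and TLSMGCL (0.171 TPM). Sox9, needed for cartilage, fell from 19.6, 19.6 and 15.6 TPM to 3.63, 3.04 and 2.73 TPM (-2.22 ± 0.13). Sox9 is also expressed in neural crest and gut, and bulk RNA does not tell which cells it came from. Here, as for every list below, fewer cells of a type and less RNA per cell cannot be told apart. In the hedgehog list, whose ligand induces sclerotome, the target Gli1 fell from 7.65, 6.5 and 8.49 TPM to 3.47, 2.8 and 2.62 TPM (-1.11 ± 0.14). Ptch1 fell by 0.35 on the log2 scale, a call lost after median-of-ratios scaling (-0.18, adjusted p = 0.146), with FPKM (-0.23, adjusted p = 0.0523) or the GC and length correction (0.01, adjusted p = 0.955), without TLSMG replicate 1 (-0.28, adjusted p = 0.0673) and without TLSMGC replicate 3 (-0.27, adjusted p = 0.0738). The ligand Shh lay below the filter, at 0.52 to 1.8 TPM, and Foxa2, of notochord and gut, did not pass (-0.48 ± 0.31).

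Dermomyotome genes did not follow one direction. Dmrt2 (ENSMUSG00000048138.9, chromosome 19, 25672420 to 25679010), a dermomyotome factor, rose from 22.6, 26.7 and 45.5 TPM to 105, 92 and 99.7 TPM (1.67 ± 0.26). Pax3, the general dermomyotome and dorsal neural marker, measured 43, 43.8 and 35.9 TPM against 28.3, 44 and 51.1 TPM and did not pass (0.03 ± 0.22). Lbx1 and Met, genes of migrating limb muscle precursors, fell by 1.95 and 1.53 on the log2 scale. Lbx1 measured 13.1 to 15.7 TPM in TLSMG and averaged 0.53 TPM in 96h and 0.3 TPM in Gastruloid. Myf5, the first myogenic factor, lay below the filter, with 1.29, 1.1 and 1.29 TPM in TLSMGC and 0.239, 0.504 and 0.51 TPM in TLSMG. Zic1, outside the lists and expressed in dorsal somite and dorsal neural tube, rose from 2.37, 10.4 and 3.65 TPM to 93.4, 85.8 and 73.3 TPM (3.91 ± 0.32). Foxd2, a factor of paraxial and intermediate mesoderm, fell from 51.2, 43.8 and 52.2 TPM to 0.272, 0.748 and 0.19 TPM (-5.17 ± 0.19), the largest fall of the genes named, and Foxd2os from 25.1, 24.7 and 27.3 TPM to 0, 0.173 and 0.0768 TPM.

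Neural tube genes were lower with CHIR99021. Of 10 tested, 7 fell and none rose (6 and 0 after median-of-ratios scaling), 6 at least 2-fold, and the median difference was -1.66. Sox2 (ENSMUSG00000074637.7, chromosome 3, 34650405 to 34652461), the neural and progenitor factor that one of the reporters marks, measured 24.6, 28.4 and 27.8 TPM against 67.4, 90.3 and 84.1 TPM, a 2.99-fold difference of means (-1.54 ± 0.17, limma adjusted p = 1.02e-05). Sox1 fell from 13.6, 21.5 and 18.4 TPM to 1.78, 1.73 and 2.79 TPM (-2.60 ± 0.22), and Sox3 by 2.28 on the log2 scale. Reads of the reporter transcripts were not looked at separately. Pax6, of the intermediate neural tube, fell from 5.31, 15 and 11.3 TPM to 0, 0.228 and 0.189 TPM (-3.24 ± 0.36), and Irx3 from 44.2, 72.2 and 58.9 TPM to 6.04, 10.4 and 9.39 TPM (-2.63 ± 0.26). Olig2, of motor neuron progenitors, was at 2.85, 2.37 and 2.45 TPM in TLSMG and at 0, 0 and 0.112 TPM in TLSMGC. The list's leading gene of neurogenesis, Neurog2, lay below the filter, at 0.226 to 0.823 TPM in the 6 libraries. Among neuron genes, Tubb3 did not pass (-0.14 ± 0.18) and Stmn2 fell by 1.02 on the log2 scale. The list of neural crest genes had 3 tested members, all of which fell, led by Ets1 (-2.30), which endothelium expresses too. The defining crest genes Sox10 and Foxd3 lay below the filter, at 0 to 0.409 TPM and 0 to 1.2 TPM.

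Genes of retinoic acid, the signal that opposes the tailbud, moved in both directions. Of 10 tested, 4 rose and 4 fell (4 and 2 after median-of-ratios scaling), and all 4 that rose did so at least 2-fold. These take part in supply and handling. Aldh1a2 (ENSMUSG00000013584.5, chromosome 9, 71215789 to 71296243), the synthesising enzyme of somites, measured 158, 119 and 128 TPM against 33, 40 and 36.8 TPM (1.85 ± 0.12, limma adjusted p = 1.15e-07). Rdh10, the step before it, rose by 1.63. Stra6, which takes up retinol, rose from 26.3, 32.6 and 40.5 TPM to 313, 204 and 264 TPM (2.94 ± 0.15), and the binding protein gene Crabp1 from 68.8, 103 and 69.4 TPM to 363, 326 and 383 TPM (2.16 ± 0.17). A receptor gene that retinoic acid induces went down, as Rarb fell from 10.3, 12.9 and 12.4 TPM to 2.52, 2.96 and 1.92 TPM (-1.90 ± 0.21).

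In the FGF pathway, ligands moved in both directions, with a median of 0.09, and the feedback targets that changed all fell. Of 8 ligands tested, 3 rose (Fgf3, Fgf9 and Fgf17) and 2 fell (Fgf15 and Fgf18). Fgf18 fell from 20.9, 14.6 and 22.5 TPM to 4.03, 3.38 and 3.96 TPM (-2.07 ± 0.16). Of the 9 feedback targets of FGF and ERK, 6 fell and none rose, with a median of -0.52. Dusp6, a phosphatase that switches ERK off, fell from 117, 96.3 and 86.8 TPM to 65.7, 66.3 and 71.7 TPM (-0.54 ± 0.11, limma adjusted p = 0.00149). Spry1 fell by 1.40 and Dusp4 by 0.91 on the log2 scale, while Spry4 did not pass (-0.02 ± 0.16).

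Of 8 BMP response genes tested, 5 fell and 2 rose (4 and 3 after median-of-ratios scaling). Id3, an immediate target of BMP, fell from 191, 256 and 214 TPM to 63.3, 70.1 and 73.2 TPM (-1.66 ± 0.14), and Id1 and Id2 by 1.20 and 1.22 on the log2 scale. Msx1 and Msx2, also BMP targets and markers of dorsal neural tube and mesenchyme, rose by 1.13 and 0.74. Msx1 measured 35.5, 44.3 and 42.3 TPM against 11.9, 26.3 and 18.2 TPM. Of 8 BMP ligands and antagonists, 4 rose and 2 fell. The ligand genes that rose were Bmp7 (1.13) and Bmp5 (0.92), and the antagonists were Fst, a binder of activin (1.26), and Nog (0.95). Among those that fell was the ligand gene Bmp2, from 2.86, 1.95 and 2.13 TPM to 0.561, 1.2 and 0.635 TPM (-0.89 ± 0.16). Nog measured 7.51, 8.15 and 6.57 TPM against 3.51, 3.19 and 3.29 TPM. Bmp4 did not pass (0.48 ± 0.24), but passed without TLSMG replicate 1 (0.72, limma adjusted p = 0.0311). In the Nodal list 4 of 6 fell (3 after median-of-ratios scaling), with a median of -0.7, led by the co-receptor Tdgf1 (-1.31), a gene that pluripotent cells also express. Among 7 Notch genes tested, 1 rose, Notch1 (0.44), and 2 fell, but 2 rose and 1 fell after median-of-ratios scaling. The Notch1 call was lost without TLSMG replicate 1 (0.38, adjusted p = 0.085), TLSMG replicate 2 (0.42, adjusted p = 0.0721) or TLSMGC replicate 1 (0.33, adjusted p = 0.108), and with no filter (adjusted p = 0.0594).

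Endothelial genes fell without exception in the list, 13 of 13, 11 of them at least 2-fold, with a median of -2.18. With any 1 library left out, 13 of 13 still fell. Kdr (ENSMUSG00000062960.10, chromosome 5, 75932827 to 75978458), the VEGF receptor of endothelium and its precursors, measured 9.05, 15.3 and 4.01 TPM in TLSMGC against 106, 94.8 and 85.2 TPM, a 10.1-fold difference of means (-3.36 ± 0.36). Cdh5, the cadherin of vessel walls, fell from 40, 34 and 30.4 TPM to 8.78, 15.3 and 3.58 TPM (-1.98 ± 0.34), and Etv2, which starts the endothelial programme, by 2.38 on the log2 scale. The smallest fall was that of Pecam1 (-0.83 ± 0.20). The TLSMGC libraries differed among themselves in the same order for the whole list. All 13 genes were highest in TLSMGC replicate 2 and lowest in replicate 3, and their summed levels were 81.7, 131 and 52.5 TPM in replicates 1, 2 and 3 against 429.6, 379.7 and 346 TPM in TLSMG. Even the highest TLSMGC library lay below all TLSMG libraries.

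The order of libraries within TLSMGC was shared by other lists. All 3 tested neural crest genes were highest in TLSMGC replicate 2 and lowest in replicate 3. Of the 4 sclerotome genes, 3 were highest in replicate 2 and 3 lowest in replicate 3. Of the 5 intermediate mesoderm genes, 5 were highest in replicate 2 and 3 lowest in replicate 3. All 8 gut endoderm and epithelial genes were lowest in TLSMGC replicate 3, and 7 were highest in replicate 2. Of that list 5 fell and none rose (4 and 0 after median-of-ratios scaling), and Foxa1 (-1.68) led them. Cdh1, the epithelial cadherin, fell by 0.84, and the keratin genes Krt8 and Krt18 fell by 1.26 and 1.09 on the log2 scale. Sox17, of endoderm and also of arterial endothelium, measured 5.91, 13.9 and 2.48 TPM against 8.11, 3.88 and 3.94 TPM and did not pass (0.24 ± 0.49). Its difference was -0.3 without TLSMGC replicate 2. Of 11 blood genes 2 were tested, of which 1 fell (0 after median-of-ratios scaling), and the defining genes Gata1 and Ptprc were listed at 0 in all 6 libraries. Runx1 did not pass (-0.11 ± 0.25). Tal1, also an early endothelial factor, fell by 0.84 on the log2 scale, a call lost without TLSMG replicate 3 (-0.81, limma adjusted p = 0.0571), TLSMGC replicate 1 (-0.65, adjusted p = 0.0836) or TLSMGC replicate 3 (-0.66, adjusted p = 0.0908). It was also lost with median-of-ratios scaling (-0.7, adjusted p = 0.0574), the GC and length correction (-0.54, adjusted p = 0.141), a fit of the 2 groups alone (adjusted p = 0.0511) and a pseudocount of 0.1 (adjusted p = 0.0626).

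Pluripotency genes were lower with CHIR99021. Of 10 tested, 8 fell and none rose (7 and 0 after median-of-ratios scaling), 7 at least 2-fold, with a median of -1.26. Pou5f1 (Oct4) fell from 28.2, 23.3 and 27.9 TPM to 6.98, 7.56 and 15.8 TPM (-1.39 ± 0.25, limma adjusted p = 6.40e-04), and Nanog from 10.3, 8.63 and 10.3 TPM to 2.95, 3.01 and 5.14 TPM (-1.22 ± 0.24). Here 9 of 10 genes were highest in TLSMGC replicate 3, the library with the lowest endothelial levels, and all 10 were lowest in TLSMG replicate 2. Utf1 had the largest fall (-1.73 ± 0.32). Dppa5a fell by 1.54 on the log2 scale, and Klf4 did not pass (0.12 ± 0.19). In the germ cell list, which shares Dppa3 with this one, 5 of 6 fell, led by Prdm1 (-2.20), a gene also expressed outside the germline, while Nanos3, more restricted to germ cells, did not pass (-0.46 ± 0.24).

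**Figure D5:**
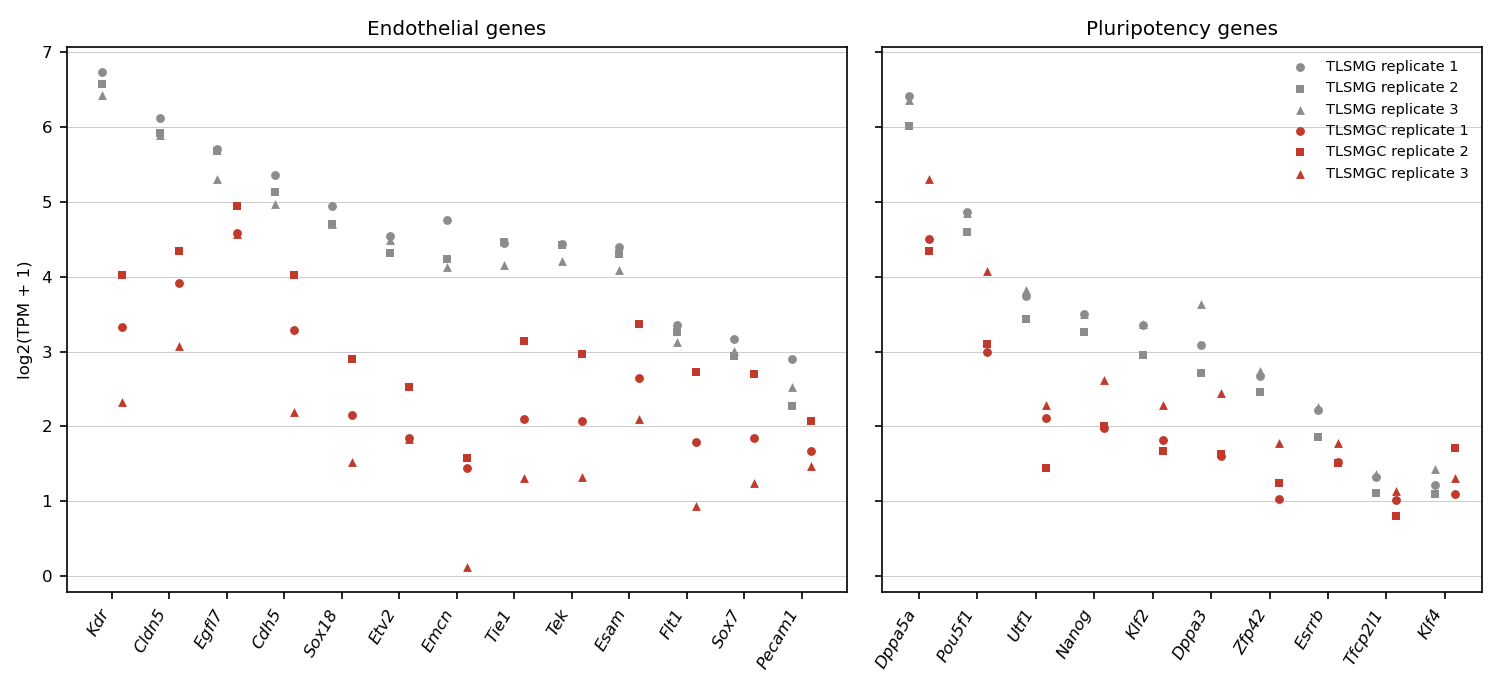
Level as log2(TPM + 1) (y axis) of the tested endothelial (left) and pluripotency (right) genes in each library, grey for TLSMG and red for TLSMGC, with the marker shape giving the replicate. In TLSMGC the endothelial genes are highest in replicate 2 and lowest in replicate 3, and 9 of 10 pluripotency genes are highest in replicate 3.

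Genes of the mesoderm beside the somites moved in both directions. In the intermediate mesoderm list, the source of the kidney, Pax2, Lhx1 and Emx2 rose by 1.06, 0.77 and 1.01, while Osr1 fell from 13, 10.6 and 7.37 TPM to 1.5, 3.35 and 2.59 TPM (-1.71 ± 0.23). Wt1 fell from 5.44, 7.77 and 5.47 TPM to 0, 0.0419 and 0 TPM. Pax2 measured 5.38, 7.16 and 4.06 TPM against 2.07, 2.11 and 2.04 TPM. Of 6 lateral plate and cardiac genes tested, 2 fell (Isl1 and Foxf1, by 1.18 and 0.73 on the log2 scale) and Prrx1 rose by 1.03. These counts lie near the shares over all genes tested, of which 30.5% fell and 10.4% rose. The Foxf1 call was lost with the GC and length correction (-0.49, limma adjusted p = 0.0684). Hand2 lay below the filter, at 0 to 0.972 TPM. The Prrx1 call was lost without TLSMG replicate 3 (0.84, limma adjusted p = 0.064) or TLSMGC replicate 1 (0.77, adjusted p = 0.065).

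Among genes of cell shape and matrix, Snai1, which drives epithelial to mesenchymal transition, the neural cadherin Cdh2 and fibronectin (Fn1) did not pass, with differences of 0.01, -0.01 and -0.01. Twist1, a factor of mesenchyme, rose by 0.55, and the mesenchymal cadherin Cdh11 fell by 1.59 on the log2 scale. Of 11 basement membrane and adhesion genes, 2 rose and 5 fell, but 4 rose and 4 fell after median-of-ratios scaling. Lamb1, a laminin chain, rose by 0.62 and Nid1, which links laminin to collagen IV, fell by 1.59 on the log2 scale. Among fibroblast markers, looked up because the stem cells were kept on feeder cells, 2 of 6 tested rose and 2 fell (3 and 2 after median-of-ratios scaling). Col1a1 measured 1.67, 0.754 and 0.837 TPM against 4.01, 3.99 and 4.13 TPM, and Thy1 2.58, 1.56 and 2.87 TPM against 0.601, 0.554 and 0.592 TPM. Acta2 rose by 0.53, a call lost without TLSMG replicate 1 (0.51, limma adjusted p = 0.05), TLSMG replicate 3 (0.45, adjusted p = 0.0782), TLSMGC replicate 1 (0.45, adjusted p = 0.0721) or TLSMGC replicate 3 (0.41, adjusted p = 0.0892), and in a fit of the 2 groups alone (adjusted p = 0.0557). The summed level of the list was 37.5 to 55.5 TPM in TLSMGC and 42.8 to 53.1 TPM in TLSMG.

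Genes of the IGF system mostly fell, 6 of 8 against 1 that rose (5 and 1 after median-of-ratios scaling). Igfbp5 (ENSMUSG00000026185.8, chromosome 1, 72857932 to 72874884), a secreted binder of IGFs, fell from 384, 443 and 565 TPM to 50.3, 48.9 and 28.8 TPM (-3.43 ± 0.21, limma adjusted p = 5.58e-08). The ligand gene Igf1 fell from 10.7, 10.5 and 8.72 TPM to 0.224, 0.486 and 0.111 TPM. Igfbp2, the gene that rose (0.54), lost that call without TLSMG replicate 2 (0.32, adjusted p = 0.0868), TLSMGC replicate 1 (0.47, adjusted p = 0.0687) or TLSMGC replicate 2 (0.52, adjusted p = 0.0518), and in a fit of the 2 groups alone (adjusted p = 0.0511). All 8 genes of the list were lowest in TLSMGC replicate 3. Igf2, the main IGF of the embryo, spread widely within both groups, at 618, 212 and 178 TPM in TLSMGC and 277, 612 and 622 TPM in TLSMG, and did not pass (-0.72 ± 0.61). Peg3, an imprinted gene outside the lists, fell from 387, 393 and 347 TPM to 28, 41.5 and 25.4 TPM (-3.56 ± 0.17).

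Lipid genes held both a large rise and a large fall. Apod, a secreted carrier of small lipids, rose from 0.442, 0.126 and 0.1 TPM to 35.2, 22.8 and 21.4 TPM (4.47 ± 0.16). Cd36, a receptor that takes up fatty acids, fell from 40.1, 34.9 and 44 TPM to 1.37, 0.989 and 0.972 TPM, a 35.7-fold difference of means (-4.27 ± 0.15). Of the other 5 tested, Scarb1 rose by 0.35 and none fell. Over all 7 tested, 2 rose and 1 fell, against 4 and 1 after median-of-ratios scaling. Of 11 genes of sterol and fatty acid synthesis, 2 rose and 1 fell (4 and 1 after median-of-ratios scaling), with Dhcr7 at 0.57 and Fasn at 0.35.

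Glycolysis genes were higher with CHIR99021. Of 13 genes of glycolysis and hypoxia, 11 rose and none fell (12 and 0 after median-of-ratios scaling), with a median of 0.59, and 2 rose at least 2-fold. Aldoa, an enzyme of the middle of the pathway, rose from 974, 991 and 1130 TPM to 1780, 1692 and 1868 TPM (0.79 ± 0.07, limma adjusted p = 1.82e-06). Ldha, which makes lactate, measured 2738, 2023 and 2880 TPM against 1670, 1535 and 2033 TPM (0.54 ± 0.14), with the lowest TLSMGC library just below the highest TLSMG one. Bnip3, a gene induced by low oxygen, rose by 1.57, and Vegfa, also so induced, by 0.37. The Vegfa call was lost without TLSMG replicate 2 (0.36, adjusted p = 0.0569) or TLSMGC replicate 2 (0.34, adjusted p = 0.0627). The glucose transporter gene Slc2a1 did not pass (-0.04 ± 0.12). Summed over the list, the levels were 12911 to 15099 TPM in TLSMGC and 9221 to 10583 TPM in TLSMG.

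Cell cycle genes were lower by small amounts. Of 18 tested, 15 fell and 1 rose, with a median of -0.35, and 8 fell and 1 rose after median-of-ratios scaling. Mki67 fell from 122, 161 and 151 TPM to 91.4, 86.9 and 62.3 TPM (-0.85 ± 0.20). The D-type cyclins, which link signals to cell division, went separate ways. Ccnd1 fell from 207, 229 and 221 TPM to 96.1, 108 and 106 TPM (-1.07 ± 0.07), Ccnd3 rose from 29.9, 32.7 and 42.7 TPM to 78.4, 76.5 and 79.8 TPM (1.15 ± 0.23), and Ccnd2 did not pass (-0.07 ± 0.14). Cdkn1a (p21), an inhibitor of the cycle and a p53 target, rose from 11.6, 12.5 and 14.9 TPM to 82.9, 66 and 67.1 TPM, a 5.54-fold difference of means (2.38 ± 0.30, limma adjusted p = 3.71e-05). Phlda3, another p53 target, rose by 1.88, while the p53 target Trp53inp1 fell by 1.42 on the log2 scale and Jun, an immediate response gene, by 2.44. Of the 11 genes of that list 3 rose and 2 fell (5 and 2 after median-of-ratios scaling).

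Several of the largest changes belong to no list. Sparcl1, a matrix protein, rose from 23.5, 28.5 and 27.2 TPM to 299, 173 and 188 TPM (2.97 ± 0.20). Slc25a48, a mitochondrial carrier, rose from 0.337, 0.304 and 0.359 TPM to 29.2, 19 and 22.3 TPM (4.18 ± 0.16). Nfam1, better known from immune cells, rose from 0.459, 0.52 and 0.833 TPM to 19.5, 7.57 and 10.2 TPM (2.97 ± 0.27), although the immune marker Ptprc was listed at 0 throughout. All 3 genes had their highest TLSMGC level in replicate 1. Lack of overlap with TLSMG was a condition for naming them.

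Falls outside the lists, beside those of Foxd2 and Foxd2os, included further regulators. Ebf2, a transcription factor, fell from 12.8, 11.6 and 14 TPM to 0, 0.099 and 0 TPM (-3.74 ± 0.12). Hopx, a homeodomain protein that does not bind DNA, fell by 3.48 and Pcp4, a calmodulin binder, by 3.62 on the log2 scale. Cer1, a secreted inhibitor of Nodal, BMP and WNT made by forming somites, fell from 11.5, 8.79 and 14.7 TPM to 0, 0.139 and 0.122 TPM (-3.52 ± 0.30). Its mean at 96h was 240.3 TPM, so it stood apart from Msgn1 and Tbx6, which were also high there but rose here.

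The genes that changed at least 2-fold were set beside 96h against Gastruloid, as a description of where their levels lay in younger structures. That comparison shares no library with TLSMGC against TLSMG. Both use the same fit and its spread per gene, so their calls are not independent. Of the 185 genes higher in TLSMGC, 108 (58.4%) were also higher at 96 h than in Gastruloid and 23 (12.4%) were lower, where 20.5% of all genes tested were higher and 20.8% lower. Of the 695 lower in TLSMGC, 434 (62.4%) were lower at 96 h and 71 (10.2%) were higher. The shared genes are 3.69% of the 2925 genes higher at 96 h and 14.6% of the 2969 lower. Among the largest rises, Cdx1 and Tbx6 averaged 323 TPM each in 96h and Msgn1 136 TPM. Wnt6, Apod and Zic1 averaged 3.1, 0.544 and 1.08 TPM there. Apod averaged 26.4 ± 7.59 TPM in TLSMGC and 33.7 TPM in TLSMGCL, and Zic1 84.2 ± 10.1 and 106 TPM. Wnt6, Apod and Zic1 were thus high in both groups with later CHIR99021 and low in 96h, Gastruloid and TLSMG.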

How the data were processed

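StringTie tables of 15 bulk libraries were used, with TPM, FPKM and coverage per gene as deposited. Per the submitters' processing notes, cutadapt 2.4, STAR 2.7.3a, StringTie 2.0 and build mm10 were used; options and annotation are not given in the sources used here. Deposited TPM values are scaled to 1000000 per library. Deposited FPKM values served as an alternative, and deposited coverage divided by FPKM gave relative depth; read counts were not used here. Precision is limited by the 3 libraries per group. The p-values set each difference against the spread within groups, pooled over all 15 libraries and moderated across genes. A fit of the 2 groups alone gave 5255 changed genes against 5842. With 3 against 3 an exact permutation test of 1 gene cannot go below p = 0.1.

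Lines of one gene ID were summed (7 to 13 per library repeated an ID). Of 54446 IDs, 54409 were in GENCODE release 21 for mouse. Genes with a mean of at least 1 TPM over the 15 libraries entered limma 3.58.1 (R 4.3.3) on log2(TPM + 1), with all 5 groups in one model, a trended prior and Benjamini-Hochberg adjustment. The fit was also run on simulated data with independent normal noise and few changed genes. That setting differs from the real data, so it checks the code and not the calls. Plots and tables used Python 3.11.15 with pandas 2.3.3 and matplotlib 3.10.9.

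The comparison, the lists and the named genes' rule were chosen with earlier results of these data known. Named are the 12 largest rises and falls (adjusted p under 0.05, at least 5 TPM in the higher group, no overlap of libraries, no predicted or mitochondrial gene), each list's leading genes whatever their values, its largest rise and fall, and further list members chosen after their values were seen. Alternatives were other scalings, units, pseudocounts, filters, a 2-group fit, a replicate block, a GC and length correction and each library left out. The 5 single-cell samples were not analysed here. Some genes that the rule names are not reported here.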

Additional observations from a re-analysis of the deposited data

How the results depend on the processing

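Of 209 named genes tested, 173 kept the same call under all 16 alternatives. The number of genes that fell was 4352, against 2844 with FPKM, 2572 with median-of-ratios scaling and 2411 with the GC and length correction, each a separate count whose overlap with the first was not computed. With the last 2 settings 2741 and 3073 genes rose, against 1490. At least 2-fold changes numbered 487 with FPKM (332 lower), 491 at a minimum mean of 5 TPM (364 lower) and 323 with a pseudocount of 5 (89 higher, 234 lower), and 457 were lower with the GC and length correction. The cause was not tested; a larger pseudocount shrinks differences and a higher filter tests fewer genes by construction. Leaving out 1 library gave 4703 to 5392 genes (1199 to 1417 higher, 3420 to 4124 lower) and 844 to 945 at least 2-fold. With the replicate block, 5599 genes changed and 880 at least 2-fold. Over all genes tested, same-numbered libraries of the 2 groups deviated with r of -0.019, 0.01 and 0.033. A value over all genes cannot exclude that the numbers pair libraries for some genes. Of 11 presomitic genes, 11 in TLSMG and 9 in TLSMGC were highest in replicate 3, while of 9 somite genes 9 and 0 were. Beside the Rnf43 call, the block changed no call of a named gene. Genes that did not pass and changed sign did so by small values. Signs turned with FPKM for Nkx1-2 (0.04), Mesp2 (0.02), Spry4 (0.07), Cdh2 (0.1), Fn1 (0.1), Ccnd2 (0.04) and Slc2a1 (0.07). With median-of-ratios scaling they turned for Nkx1-2 (0.1), Mesp2 (0.08), Cdx4 (0.05), Tubb3 (0.02), Spry4 (0.13), Cdh2 (0.17), Fn1 (0.16), Ccnd2 (0.1) and Slc2a1 (0.14). With the GC and length correction they turned for Rspo3 (0.03), Nkx1-2 (0.23), Mesp2 (0.14), Cdx4 (0.11), Spry4 (0.35), Runx1 (0.18), Cdh2 (0.35), Fn1 (0.32), Ccnd2 (0.08), Slc2a1 (0.1), Sp8 (0.09) and Ptch1 (0.01), of which Cdh2 then passed (limma adjusted p = 0.00251) and Ptch1 had passed before. With 1 library left out, differences ranged from -0.27 to 0.04 for Nkx1-2, -0.27 to 0.11 for Mesp2, -0.3 to 0.08 for Cdx4, -0.21 to 0.2 for Pax3, -0.28 to 0.03 for Tubb3, -0.12 to 0.05 for Spry4, -0.3 to 0.75 for Sox17, -0.07 to 0.09 for Snai1, -0.09 to 0.05 for Cdh2, -0.14 to 0.09 for Fn1, -0.05 to 0.26 for Klf4 and -0.1 to 0.03 for Slc2a1. Absolute read depth is unknown, so no counting limit is given for genes listed at 0.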
